A study of Sus scrofa with 16 samples.

Results

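In newborn pig liver, 13954 accessible chromatin regions (ACRs) were also listed at the suckling and adult stages and were absent from the peak lists of all 5 other newborn tissues. They were the members of the set described here, and made up 12.1% of the 115504 autosomal peaks of newborn liver (95% Wilson interval 11.9 to 12.3%) out of 798988 peaks in the 8 lists of the series. A member is a newborn liver peak on chromosomes 1 to 18 that overlapped a suckling and an adult liver peak by 1 bp or more and no peak of newborn heart, kidney, lung, skeletal muscle or spleen. The members were chosen by these peak calls, so their presence and strength in the 3 liver lists are given as descriptions, without a test. Intervals of shares cover counting error only.

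The series profiled open chromatin by ATAC-seq, in which a transposase cuts exposed DNA, in 16 libraries of frozen tissue from female crossbred domestic pigs. Per the methods of the study these were full sibs of a Berkshire by Tibetan cross, with 2 animals sampled at each age. The groups used here were newborn liver together with newborn spleen, lung, kidney, heart and muscle (day 0 in the labels, described by the study as a day old), liver of suckling pigs at 28 days, and liver of adult pigs at 180 days, with 2 replicates each and no genetic or drug treatment. The authors merged the replicates of a group into 1 peak list, so counts lack an error between replicates, depth cannot be read from the lists, and a region absent from a list was not called rather than measured as closed. In whole tissue, fewer cells of a type and less accessibility per cell cannot be told apart.

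Hepatocytes make most plasma proteins, detoxify drugs, and run bile acid, urea and glucose metabolism, and they do so under a small group of transcription factors that includes HNF4, HNF1, FOXA, C/EBP, ONECUT and NR5A2. These factors bind together at promoters and at distal enhancers, where nucleosomes are displaced and the DNA becomes open to the transposase. Kupffer cells, sinusoidal endothelium, stellate cells, bile duct cells and, around birth, blood-forming cells share the organ with the hepatocytes.

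To show what the members look like as DNA, the newborn summit (the point of highest signal) is printed with 100 bases on either side. The members printed lie at named genes and carry the letters of a hepatocyte factor motif. They were not all strong, and the C6 member gave −log10 p values of 89.1 and 12.3 in the newborn replicates. Bases come from the plus strand of RefSeq Sscrofa11.1, and capitals mark the matched letters, which describe the sequence and are not shown to be bound. The first members hold CAAAGTCCA, the HNF4 motif, on either strand. They lie at the promoter of YPEL1 (chr14:50202225-50202425), at the promoter that ITIH1 shares with NEK4 (chr13:34891209-34891409, which also holds FOXA matches), and at the promoter of the complement gene C6 (chr16:26089904-26090104).
YPEL1: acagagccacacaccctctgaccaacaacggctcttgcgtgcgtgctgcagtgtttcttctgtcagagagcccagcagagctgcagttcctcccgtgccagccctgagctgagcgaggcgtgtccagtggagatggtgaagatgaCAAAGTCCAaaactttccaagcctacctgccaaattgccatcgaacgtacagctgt
ITIH1: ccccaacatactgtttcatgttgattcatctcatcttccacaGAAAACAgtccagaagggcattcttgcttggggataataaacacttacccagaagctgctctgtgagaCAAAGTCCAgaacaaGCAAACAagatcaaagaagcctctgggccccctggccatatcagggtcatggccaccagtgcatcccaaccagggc
C6: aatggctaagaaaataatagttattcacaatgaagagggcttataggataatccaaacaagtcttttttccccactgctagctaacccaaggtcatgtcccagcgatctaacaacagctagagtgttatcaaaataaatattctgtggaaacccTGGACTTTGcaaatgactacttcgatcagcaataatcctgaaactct
The next members hold TTGCNNAA, the C/EBP motif, on either strand. They lie in the promoter of DGKG (chr13:124136102-124136302), in an intron of APOB (chr3:117265257-117265457) and in the promoter of CEBPB itself (chr17:51720827-51721027), where the match began 3 bases before the summit.
DGKG: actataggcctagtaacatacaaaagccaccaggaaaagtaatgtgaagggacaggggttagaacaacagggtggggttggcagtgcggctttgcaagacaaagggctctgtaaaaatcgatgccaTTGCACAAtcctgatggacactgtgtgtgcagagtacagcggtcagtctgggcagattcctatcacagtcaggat
APOB: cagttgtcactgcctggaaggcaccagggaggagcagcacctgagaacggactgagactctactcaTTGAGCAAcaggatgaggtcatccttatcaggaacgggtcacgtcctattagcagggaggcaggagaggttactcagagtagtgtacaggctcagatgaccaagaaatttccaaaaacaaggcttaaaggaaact
CEBPB: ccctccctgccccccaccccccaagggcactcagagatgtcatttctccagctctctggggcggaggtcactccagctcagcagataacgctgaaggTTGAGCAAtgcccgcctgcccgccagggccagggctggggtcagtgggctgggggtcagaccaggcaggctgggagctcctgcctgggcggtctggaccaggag
The promoter member of TDO2 (chr8:44708580-44708780) holds a C/EBP match and a match of TGTTTNC, the FOXA motif, that overlap and are therefore in capitals as 1 run.
TDO2: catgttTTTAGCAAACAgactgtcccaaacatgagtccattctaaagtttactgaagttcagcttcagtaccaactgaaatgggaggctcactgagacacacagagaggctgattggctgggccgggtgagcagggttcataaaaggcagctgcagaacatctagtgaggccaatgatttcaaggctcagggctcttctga

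Whether these regions lay at liver genes was examined with 18 gene lists written with earlier results of these data known, so their counts are descriptions and no independent evidence. Of the 129 genes of the 10 liver function lists found on the autosomes, 113 (87.6%) had a member in the gene or within 10 kb of it. The share over all 18725 autosomal protein-coding genes (PCGs) was 33.5%. Of the 87 genes of the 8 lists for other cell types and housekeeping, 29 (33.3%) had one, which is close to that background. The rule drops regions also listed in the 5 other newborn tissues. It thereby lowers the counts for genes that are open in those tissues too, so the contrast between the lists partly follows from the rule. Per 100 kb, liver function genes held 5.28 members, other genes 0.73 and all PCGs 0.82. Members made up 30.5% of the newborn liver peaks at liver function genes, 9.07% of those at the other lists and 11.06% of those at all PCGs. Promoters, taken from 2.2 kb upstream to 500 bp downstream of a start site, held a member in 57 liver function genes (44.2%), in 6 genes of the other lists (6.90%) and in 668 PCGs overall (3.57%).

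**Figure D1:**
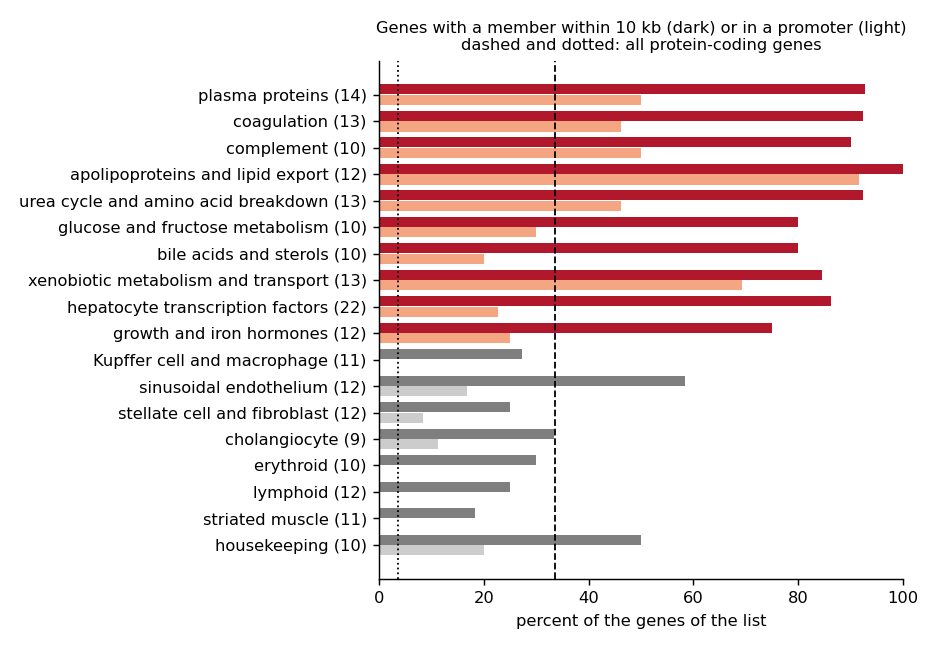
Percent of the genes of each list with a member in the gene or within 10 kb (dark bars) and with a member in a promoter (light bars), red for liver function lists and grey for other lists, with the number of genes in parentheses. The dashed line (33.5%) and the dotted line (3.57%) give all autosomal PCGs, and all 10 liver function lists lie to the right of both.

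Plasma protein, clotting and complement genes were covered almost completely. Of the plasma protein genes 13 of 14 had a member, of the coagulation genes 12 of 13 and of the complement genes 9 of 10. ALB, which encodes albumin, had 6 members within 39.7 kb, and the strongest of them, chr8:69663220-69664946 just downstream of the gene, gave −log10 p values of 139 and 32.2 in the newborn, 70.8 and 50.0 in the suckling and 114 and 107 in the adult replicates. Its neighbour AFP, the fetal counterpart of albumin, was the plasma protein gene without a member. This depended on the 10 kb limit, since the nearest start site to the ALB member just named was that of AFP, 13.4 kb away. LOC102166306, an alpha-fetoprotein-like gene of the same chromosome that is in no list, had 8 members, including in a promoter. AFP had 10 newborn liver peaks, of which 5 were also listed in another newborn tissue, and 3 of the 5 liver-only peaks were listed in neither suckling nor adult liver. AHSG, which encodes fetuin A, had 6 members, and the strongest (an exon, chr13:124430877-124432090) gave 94.2 and 37.0, then 45.2 and 57.3, then 189 and 127. In TF, the gene of transferrin, the strongest of 5 members (chr13:74914743-74915306) gave 224 and 28.5 in newborn, 22.6 and 21.1 in suckling and 242 and 129.9 in adult liver, and held the C/EBP motif.

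The fibrinogen genes FGA, FGB and FGG held 5, 3 and 6 members. At the FGA promoter (chr8:74574363-74575492), with C/EBP and FOXA matches, values were 226 and 25.8, 37.1 and 27.5, and 149.5 and 112 in newborn, suckling and adult liver. One member at the promoter of F10, a clotting factor activated by F7 (chr11:78521462-78521971), lay within 10 kb of both genes and gave 280.4 and 47.6, 24.99 and 38.2, and 139 and 193. PROC, which encodes the anticoagulant protein C, had a promoter member with 110.2 and 34.7, 27.8 and 40.1, and 99.1 and 102. F2, the gene of prothrombin, had no member, and 7 of its 10 newborn liver peaks were also listed in another tissue. Among complement genes, MBL2 had 4 members, C6 had 5 and C8A had 6, and CFB was the only matched gene with 0.

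Lipid export was the most completely covered list: all 12 genes had a member and 11 had one in a promoter. APOB, the structural protein of liver-secreted lipoproteins, had 8 members, and the intronic one printed above (peak chr3:117265141-117265419) gave 265 and 52.9 in newborn, 46.9 and 51.5 in suckling and 241 and 253 in adult liver. An intronic member of LIPC, which encodes hepatic lipase, gave 209 and 59.9, 64.7 and 70.8, and 209.8 and 203. At APOA4, in the apolipoprotein cluster of chromosome 9, the strongest of 4 members gave 165 and 55.7, 61.9 and 49.4, and 228.3 and 153. The promoter of LCAT, which esterifies cholesterol in plasma, gave 193 and 32.6, 36.6 and 55.4, and 163 and 161. In each of these members, replicate 1 of newborn liver exceeded replicate 2 several-fold.

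Metabolic genes differed more among themselves. Of the urea cycle and amino acid genes 12 of 13 had a member. The CPS1 gene, the entry step of the urea cycle, had 10, and ASL, a later step, had 0 among its 7 newborn liver peaks. At TDO2, the first step of tryptophan breakdown, the promoter member (chr8:44708335-44709188) gave 314 and 27.7, 25.5 and 58.3, and 240.0 and 209. Glucose and fructose metabolism had a member in 8 of 10 genes, bile acid and sterol metabolism in 8 of 10 and xenobiotic metabolism in 11 of 13. AKR1D1, which reduces bile acid precursors, had 12 members, the highest number among the list genes. ABCB11, the bile salt export pump, and SLC10A1, the bile salt uptake carrier, had 5 each, whereas CYP8B1 and HSD3B7 of the same pathway had 0. FBP1, an enzyme of glucose synthesis, had no member, and all 6 of its newborn liver peaks were also listed in another tissue.

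Of the 22 hepatocyte transcription factor genes, 19 had a member. ONECUT1 stood out with 10 members among 14 newborn liver peaks, followed by NR1H4, the bile acid receptor, with 7 of 18 and NR5A2 with 5 of 19. HNF4A had 1 of 14, and FOXA2 and FOXA3 had 2 and 3. FOXA1, CEBPA and TBX3 had 0, and they had 5, 3 and 3 newborn liver peaks. NR1I3, the xenobiotic receptor CAR, carried a promoter member (chr4:89226243-89227340) with 177 and 43.1, 50.3 and 71.2, and 266 and 233, and no peak of another newborn tissue lay in its promoters. Of the growth and iron hormone genes 9 of 12 had a member, with 6 at GHR, the growth hormone receptor, 5 at IGF1 and 1 at the promoter of HAMP, which encodes the iron hormone hepcidin.

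Markers of other cells were counted in the same way, under a rule that drops regions also called in spleen or another newborn tissue. Sinusoidal endothelium had a member in 7 of 12 genes (58.3%), and the other 7 lists had 18.2 to 50% of their genes with one. STAB2, a scavenger receptor of that endothelium, had 6 members among 26 newborn liver peaks, and the strongest gave 73.3 and 14.1, 7.39 and 11.8, and 12.7 and 20.9. CLEC4G had a promoter member with 28.9 and 8.73, 11.9 and 17.3, and 15.2 and 21.9. Kupffer cell and macrophage genes had a member in 3 of 11, stellate cell genes in 3 of 12, cholangiocyte genes in 3 of 9, erythroid genes in 3 of 10, lymphoid genes in 3 of 12, muscle genes in 2 of 11 and housekeeping genes in 5 of 10. Defining genes of those lists, CD163, CSF1R and SPI1 for macrophages, TAL1 for erythroid cells and SOX9 and KRT19 for bile duct cells, had 0. An intronic member of PAX5, a B cell factor, nevertheless ranked at or above the 92.9th percentile of each liver list, with 346 and 49.1 in newborn, 38.6 and 57.1 in suckling and 160.1 and 222 in adult liver.

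The 10 strongest distal members lay at none of the list genes. Strength was ranked by the lowest of a member's percentiles in the 3 liver lists, where the percentile is the share of peaks of the list with the same or a lower −log10 p. First was chr6:165023998-165024618, an intergenic region 29.9 kb from the start of LOC102164418, with 405 and 101.4 in newborn, 108 and 110.5 in suckling and 310.5 and 298 in adult liver. An exonic region of LRRC29 (chr6:27848640-27849433) followed with 273 and 92.2, 85.0 and 108, and 308 and 323. The region chr13:27099305-27100126, 93.3 kb from ABHD5, a lipase cofactor, had the highest newborn values of all members, 498 and 149, with 112 and 130.5 in suckling and 319 and 237 in adult liver. Others among the top 10 distal members lay near TSLP, in introns of LEF1, ATRN, SPATA31D1 and ABI3BP, 20.7 kb from GREB1L and 370.4 kb from TBX3, a factor of liver bud growth. Their nearest start sites were 7.46 to 370.4 kb away, and the genes they act on are not given by the lists.

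Among promoter members, DGKG, a diacylglycerol kinase, ranked first with 408 and 113 in newborn, 77.5 and 116 in suckling and 297 and 279.6 in adult liver (chr13:124135763-124136539). CLDN14, a tight junction claudin, gave 381 and 79.2, 61.6 and 62.7, and 222 and 226. YPEL1 gave 270.2 and 63.3, 65.1 and 85.5, and 213 and 247. B3GALT5, SLC28A3, NR1I3 and A2M, the gene of the protease inhibitor alpha-2-macroglobulin, were also in the top 10, with A2M at 177 and 40.6, 43.3 and 54.6, and 251 and 209. Newborn replicate 1 gave higher values than replicate 2 for each of these.

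**Figure D2:**
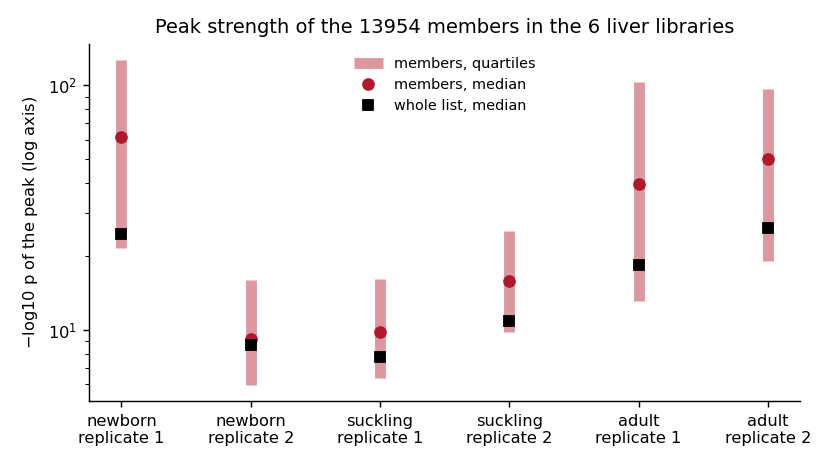
Quartiles (bars) and median (circles) of the peak −log10 p of the 13954 members in each of the 6 liver libraries, on a log axis, with the median of the whole list (squares). The member medians lie above those of the lists in all 6 libraries, by least in newborn replicate 2 (9.20 against 8.66).

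Strength was then summarised over the set. The median −log10 p was 61.5 and 9.20 in the newborn replicates, 9.84 and 15.9 in the suckling replicates and 39.6 and 49.8 in the adult replicates. Whole-list medians were 24.8 and 8.66, 7.78 and 10.9, and 18.4 and 26.0. These values move with depth, so they were compared only within a list. The median percentile of the members, taken from the smaller replicate value, was 55.9 at birth, 62.9 at the suckling and 66.4 at the adult stage. Replicate 2 alone gave the same order (52.2, 62.7 and 66.6), whereas replicate 1 alone was highest at birth (69.5, 61.3 and 66.6). The irreproducible discovery rate (IDR), which grades how well a peak's ranks match between replicates, was 0.05 or lower for 24.5% of members in the newborn list, 45.04% in the suckling list and 66.3% in the adult list, against 19.2%, 33.8% and 50.4% of all peaks in those lists. At all 3 ages 2317 members (16.6%) passed it, and 3328 (23.8%) passed at none. Spearman's rho of the percentiles across the 13954 members was 0.477 between newborn and suckling, 0.346 between newborn and adult and 0.454 between suckling and adult liver, beside 0.494, 0.610 and 0.740 between the replicates within each age. The members share libraries, so these are descriptions.

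Members overlap a liver peak at the later ages by the rule, and their positions are given as a description. The summit of a member lay a median of 24 bp from its suckling summit and 21 bp from its adult summit, and 32 bp separated the summits of the newborn replicates. Of all members, 76.2% had an adult summit within 50 bp. An adult peak overlapped at least 50% of 94.3% of the members, and a suckling peak of 86.4%. Few members rested on a thin overlap, with under 10 bp shared with the suckling peak in 5 and with the adult peak in 10.

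The change of strength with age depended on the newborn library. By the smaller replicate value, the adult percentile was higher than the newborn one in 59.9% of members, by more than 25 points in 3469 (24.9%), and lower by more than 25 points in 1947 (14.0%). With replicate 2 alone the adult percentile was higher in 62.8%, and with replicate 1 alone in 48.7% (95% interval 47.8 to 49.5), where 1327 members gained and 2044 lost more than 25 points. No direction over the whole set is therefore given. Replicates were paired across ages by number only. An intronic region of SPRY1, an inhibitor of growth factor signalling, rose most among members with an IDR of 0.05 or lower at either age, with 6.25 and 3.31 in newborn, 8.41 and 42.2 in suckling and 270.5 and 198 in adult liver. ZNF704 had an intronic region with 4.17 and 3.54, 38.5 and 50.9, and 287 and 245. These newborn peaks were narrow, 103 and 137 bp, and lay 5 and 15 bp from a peak of another newborn tissue, at the border of the rule. At TARSL2 and AHI1 the rise rested on newborn replicate 2, since replicate 1 gave 294 and 271 against 3.66 and 3.27. A region in LRRC41 was low in both newborn replicates, with 6.08 and 3.59, 39.0 and 54.3, and 248 and 266. It lay 136 bp from a peak of another newborn tissue. The fall was largest 95.3 kb from FRMD4B, with 319 and 59.5, 25.3 and 56.1, and 4.71 and 3.82, and there both adult replicates were low. In FOXP1, MAPRE2 and near CAV2 and SDCBP 1 adult replicate was low (3.61 to 4.06) while the other gave 37.7 to 174.

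Most members lay away from promoters. Introns held 47.3%, intergenic regions 37.6%, exons 9.61%, promoters 5.09% and the 300 bp downstream of genes 0.373%. For comparison, the 54805 regions listed at all 3 ages and also in another newborn tissue (shared regions) had 25.6% in promoters. The difference was −20.5 percentage points (95% Newcombe interval −21.0 to −19.9), with a lower share of members on 18 of 18 autosomes. Liver-only newborn regions that were not called in adult liver (14802, the early regions) had 3.26% in promoters, 1.83 points below the members (1.36 to 2.29, higher in members on 16 of 18 autosomes). Liver-only regions called in suckling and adult but not newborn liver (5744, the late regions) had 4.997%, and the difference of 0.0916 points (−0.599 to 0.745) did not exclude 0. The median distance from a summit to the nearest PCG start was 27.6 kb for members and 14.1 kb for shared regions. Members had a median width of 452 bp (quartiles 312 and 650) against 250 bp for early and 623 bp for shared regions.

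Of the 668 PCGs with a member in a promoter, 508 (76.0%) also had a peak of another newborn tissue in a promoter, and only 191 members overlapped a start site itself. The other 160 genes (24.0%) had no peak of another tissue there, against 3563 of all 18725 PCGs (19.03%). The liver function lists supplied 25 of them. Chosen after their values were seen, examples are the carriers and binding proteins TTR, HPX and ORM1, the apolipoproteins APOA5, APOC2, APOF and APOH, the cytochromes CYP2E1, CYP3A29, CYP2C33, CYP2C42 and CYP2C49, the tyrosine enzyme TAT and the hepatocyte receptor ASGR1. SHH, a secreted morphogen, and GNRHR, a pituitary hormone receptor, were among the 160 as well.

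By number of members, long genes led. WWOX had 21 in 981 kb, SHANK2 20 in 519 kb, C8H4orf17 19, AUTS2 18, CHN2 15 and PSD3, PLCB1, RORA and NAV2 14 each, at 1.44 to 5.16 members per 100 kb. The span of C8H4orf17 on chromosome 8 includes the alcohol dehydrogenase genes ADH1C, ADH4 and ADH5. LOC100153899, annotated as serpin A3-8, had 15 members in 120 kb (12.52 per 100 kb) and overlaps other serpin loci of chromosome 7. Ranked by density among genes with at least 5 members, a ranking chosen after the values were seen, LOC396685 (serpin A3-8), CTRL, PSMB10, FETUB, FGG, the cytochrome P450 gene LOC100739741, kallistatin (LOC100157117), SERPINA5, a glutathione transferase (LOC100153094) and CYP2C33 led, at 18.9 to 24.3 members per 100 kb. CTRL and PSMB10 lie beside LCAT, and its promoter member was counted for both. At 3930 members (28.2%), no PCG lay within 10 kb.

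Sequence features, which the rule did not use, were counted within 100 bp of the newborn summits of the 13244 members outside promoters. FOXA letters (TGTTTNC) were present in 26.2% of members (25.5 to 27.0), 16.4% of windows 300 to 500 bp from the same summits, 20.4% of early, 20.4% of shared and 19.5% of late regions. C/EBP letters (TTGCNNAA) were present in 17.5% (16.9 to 18.2), against 9.53% of the flanking windows and 11.5%, 11.5% and 13.1% of the other sets. Over all newborn liver regions outside promoters the shares were 20.5% for FOXA and 12.03% for C/EBP. The C/EBP difference was 5.97 points from early regions (5.14 to 6.80) and 5.997 from shared regions (5.29 to 6.72), with members higher on 18 of 18 autosomes in both. From late regions it was 4.41 points (3.29 to 5.50, 17 of 18).

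HNF4, DR1 and ONECUT letters were rarer but stood further above the flanks. HNF4 letters (CAAAGTCCA) were found in 274 members (2.07%, 1.84 to 2.33), 0.340% of flanking windows, 0.929% of early, 1.12% of shared and 1.21% of late regions. The difference from early regions was 1.14 points (0.854 to 1.435, 18 of 18 autosomes). DR1 letters (AGGTCAAAG) are only a part of the half-site repeat bound by nuclear receptors, and can overlap HNF4 letters. They were in 1.56% of members and 0.355% of flanks. ONECUT letters (TATTGATT) were in 3.14% of members, 1.58% of early, 0.556% of shared and 1.81% of late regions, and the difference from shared regions was 2.59 points (2.29 to 2.90, 18 of 18). HNF1 letters (GTTAATNAT) were in 1.68% of members and 1.34% of shared regions, and NR5A2 letters (TCAAGGTCA) in 0.883% and 0.618%. Late regions had NR5A2 letters in 0.733%, and the interval of the difference from members (−0.151 to 0.411) held 0. For PAR bZIP letters (TTANGTAA) members had 2.89%, against 2.57% of late regions, and the interval of the difference from those (−0.203 to 0.816) held 0. None of these 8 hepatocyte motifs was found in 54.3% of members, against 67.2% of early, 67.0% of shared and 64.9% of late regions.

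**Figure D3:**
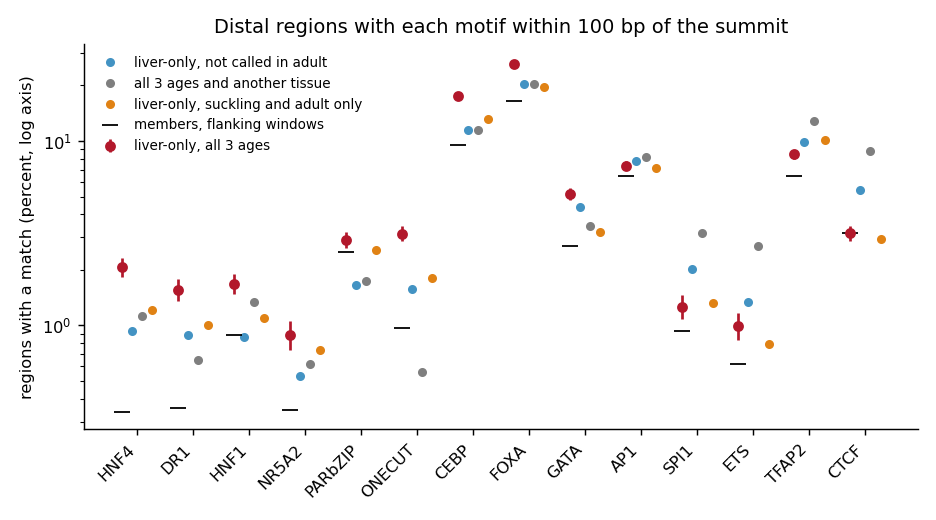
Percent of distal regions (log axis) with each motif within 100 bp of the summit, for members (red, with 95% intervals) and for early (blue), shared (grey) and late regions (orange); black dashes give windows 300 to 500 bp from member summits. Without regard to GC content, members are highest of the 4 sets for the 8 hepatocyte motifs (HNF4 to FOXA) and for GATA, and at flank level for CTCF.

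CTCF, SPI1 and TFAP2 letters were less common in members than in early and shared regions, but CTCF and SPI1 not less than in late regions. CTCF letters (AGGGGGC) were in 3.16% of members and 3.16% of flanking windows, against 5.41% of early and 8.88% of shared regions, lower in members on 18 of 18 autosomes in both. SPI1 letters (GAGGAAGT), of the myeloid factor PU.1, were in 1.25% against 3.18% of shared regions, and TFAP2 letters (GCCNNNGGC) in 8.48% against 12.9%. Late regions had CTCF letters in 2.93% and SPI1 letters in 1.32%, and the intervals of both differences from members (−0.335 to 0.744 and −0.448 to 0.273) held 0. AP-1 letters (TGANTCA) were in 7.36% of members and 7.82% of early regions, with a difference of −0.460 points (−1.085 to 0.167). GATA letters (AGATAAG) were in 5.16% of members, 3.46% of shared and 4.40% of early regions. The order against early regions turned below 45% GC (6.87% of members and 7.71% of early regions) and among the stronger regions (5.25% and 6.17% in the third, 5.88% and 7.88% in the fourth of 4 equal classes of the newborn list by strength). MYOD letters (CAGCTG), for a muscle factor, were in 15.1% of members and 18.3% of shared regions.

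Base composition and strength differed between the sets, so shares of some motifs were also taken within classes of each. TFAP2 letters, whose fixed bases are all G or C, and MYOD letters were not counted within such classes. Mean GC of the windows was 48.6% in members, 50.9% in early, 53.6% in shared and 49.3% in late regions. Below 45% GC, C/EBP letters were in 23.7% of members and 17.9 to 18.8% of the other sets, and at 55% GC or above in 8.398% against 5.12 to 6.53%, so members were highest in both bands. HNF4 letters were in 2.37% of members below 45% GC, against 1.10 to 1.66%, and in 1.83% at 55% or above, against 0.504 to 1.21%. HNF1, PAR bZIP and NR5A2 letters did not keep the order. Below 45% GC, shared regions had HNF1 letters in 3.40% and members in 2.93%, and late regions had PAR bZIP letters in 5.58% and members in 5.12%. From 50 to 55% GC, NR5A2 letters were in 0.752% of members, 0.821% of shared and 0.921% of late regions. By the same classes of newborn strength, C/EBP letters were in 16.6%, 16.4%, 18.1% and 18.4% of members from the weakest to the strongest, against 9.62%, 13.002%, 13.8% and 15.6% of early regions. In the 2 stronger of these classes FOXA letters were no more common in members, with 26.9% of members and 27.4% of early regions in the lower and 31.0% and 32.7% in the upper one.

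**Figure D4:**
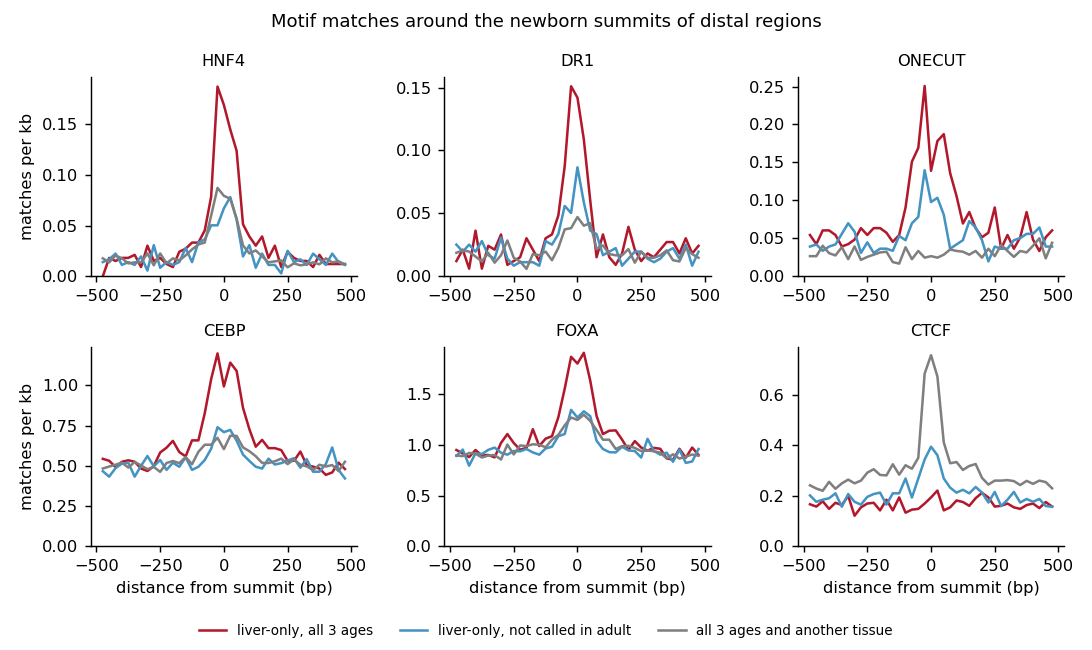
Matches per kb of 6 motifs in 25 bp bins from the newborn summit, for distal members (red), early (blue) and shared regions (grey). HNF4, DR1, ONECUT, C/EBP and FOXA matches peak at the member summits, whereas CTCF matches peak in shared regions.

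Matches of several motifs were placed at the summits. Density of HNF4 letters in the central bins was 13.4 times that at the edges of the profile in members, 4.24 times in early and 5.09 times in shared regions. The ratio was 6.45 for DR1, 3.69 for ONECUT, 2.23 for C/EBP and 2.01 for FOXA in members, and 1.19 for CTCF against 2.91 in shared regions. Pairs of motifs in 1 window were also counted, with FOXA letters in 29.05% (27.2 to 30.9) of members with C/EBP letters and in 25.6% of those without, and with C/EBP letters in 18.2% (14.1 to 23.3) of members with HNF4 letters and in 17.5% of those without. Summits of single replicates gave C/EBP in 18.4% and 16.3% and HNF4 in 2.19% and 1.94%.

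Members with some motifs were stronger in particular libraries. HNF4 letters went with a higher median percentile than their absence in all 6 libraries, by 8.4 and 5.8 points in newborn, 5.5 and 2.2 in suckling and 9.8 and 8.8 in adult replicates. C/EBP letters went with 7.5 and 9.0 points in adult, 0.5 and 1.2 in suckling, and 8.9 and 1.5 in newborn replicates, with a larger value in newborn replicate 1 than in replicate 2. CTCF letters went with −12.8 and −14.2 points in adult, 1.4 and −2.4 in suckling, and −14.5 and −0.5 in newborn replicates. From newborn to adult, the median change with C/EBP letters was 13.5 points in replicate 2 (6.22 without) and −1.06 in replicate 1 (−0.433 without). For HNF1 it was 16.7 in replicate 2 (7.39 without) and −4.36 in replicate 1 (−0.497 without). The sign differed between the replicates for both motifs, and also in members without them. Newborn and adult replicates were different animals, paired here by number only.

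**Figure D5:**
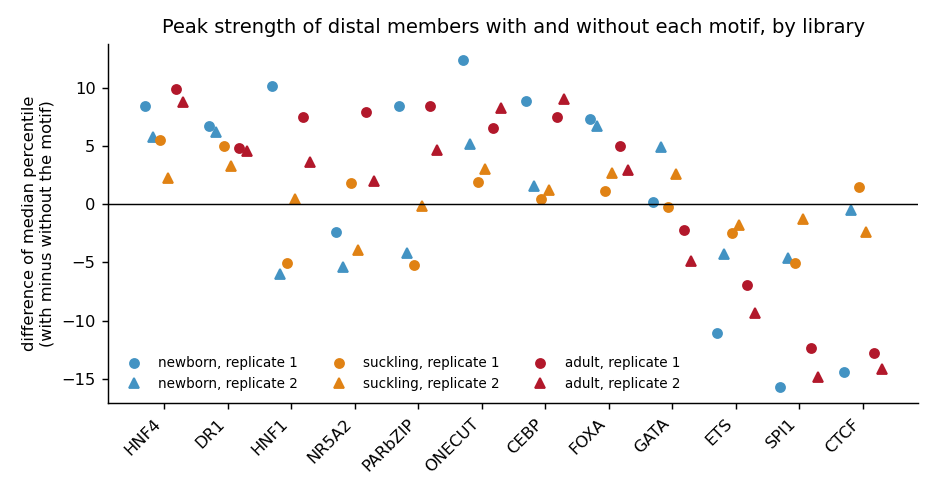
Difference of the median within-list strength percentile between distal members with and without each motif, in newborn (blue), suckling (orange) and adult liver (red), circles for replicate 1 and triangles for replicate 2. Of the 12 motifs plotted, HNF4, DR1, ONECUT, C/EBP and FOXA lie above 0 in all 6 libraries, and ETS and SPI1 below 0 in all 6.

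On the chromosomes, members were present at 6.16 per Mb. Density was highest on chromosome 12 with 9.69 and lowest on chromosome 11 with 4.40, while the share of newborn liver peaks that were members ranged from 10.8% on chromosome 3 to 13.8% on chromosome 8. Repeat-masked bases made up 16.6% of the windows at distal member summits and 30.3% of the flanking windows, against 20.2% and 29.5% for early regions.

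The nearest peak of another newborn tissue was a median of 2475 bp from a member. It was under 500 bp away for 1912 members (13.7%) and over 10 kb away for 14.3%. At the border of the rule, 11 members lay under 10 bp from another tissue's peak, with a median newborn percentile of 36.1, and 30 shared regions overlapped one by under 10 bp at most, with a median of 43.8. Of the 32321 liver-only newborn regions, 13954 (43.2%, 42.6 to 43.7) were members, 4488 were listed in suckling but not adult liver, 3565 in adult but not suckling liver and 10314 in neither, whereas 65.9% of the 83183 regions shared with another tissue were listed at all 3 ages.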

How the data were processed

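Open chromatin was measured by ATAC-seq in 16 libraries. According to the study, the authors aligned reads to Sscrofa11.1 with Bowtie2, filtered them with SAMtools 1.3.1 (version from the submitters' processing notes), called peaks per replicate with MACS2 and matched the 2 replicates of a group by IDR at default settings. The MACS2 options name both a shift with extension and a whole-fragment format, and whether summits mark cut sites or fragment centres is not stated. The deposited lists give −log10 p per replicate and the smaller of both, and the authors' score, a scaled IDR in which 540 stands for 0.05. No list was filtered on it. The lists carry no read depth, and the read totals stated by the study were not used here.

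Overlaps, features, motif letters and intervals were computed with Python 3.11.15, pandas 2.3.3, pysam 0.24.0 and samtools 1.23.1 from RefSeq Sscrofa11.1, the build of the lists. Code was tested on simulated data. A peak took the first feature it overlapped (promoter, exon, intron, downstream, intergenic). The suckling or adult partner of a member was the strongest overlapping peak. Members and the 18 gene lists and 22 motifs were chosen with earlier results of these data known. The named members were the 10 strongest distal and promoter members, the 10 genes with most members, the 5 largest rises and falls, and up to 4 genes per list, while the densest genes, list genes named by their number of members or lack of one, and the genes without a promoter peak of another tissue were picked after their values were seen. No p was computed, since lists pool replicates and calls chose the members. Alternatives changed the IDR limit, overlap, distance, list length, the replicate that gave positions or percentiles, promoter, gene distance and window. Some genes of the lists are counted but not reported by name here.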

Additional observations from a re-analysis of the deposited data

How the results depend on the processing

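Of 53 alternative values over 8 results, 31 stayed within 1.5 times the count or within the interval of the share. When the 3 liver lists were cut to an IDR of at most 0.05, 2317 members, 129 promoter genes, 57 liver function genes and 6 genes of other lists were left, and HNF4 and C/EBP shares were 2.74% and 20.5%. With the 57126 strongest peaks of every list, 6225 members, 376 promoter genes and 18 other genes were left, the promoter share was 6.18% and the HNF4 share 2.55%. The promoter share was 4.58% without peaks within 500 bp of another tissue, 2.71% (366 genes) with promoters of 1000 bp upstream to 100 bp downstream, and 6.59% with all annotated genes. Within 50 kb, 47 other genes had a member. Within 50 bp of the summit, HNF4 and C/EBP shares were 1.49% and 9.76%. Taking peak bounds and summits from 1 replicate gave 14078 members either way and C/EBP shares of 16.2 and 18.4%. The peaks were still those matched in both replicates. These values therefore do not show what calls from 1 replicate alone would give. The share of members with a higher adult than newborn percentile, 59.9%, was 62.8% without replicate 1 and turned to 48.7% without replicate 2, an alternative chosen after seeing the data; the cause was not tested. No paired analysis was possible because the results come from calls on merged lists and from no test, and the liver ages are different animals. Counts fall with stricter lists by construction. Calls depend on depth, which the lists do not carry, so absence from a list was not measured as closed chromatin. Newborn replicate 2 gave lower values than replicate 1.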
